A study of Mus musculus with 4 samples.

Results

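Endothelial marker genes are the 10 genes Tek, Tie1, Ramp2, Pecam1, Cdh5, Kdr, Eng, Esam, Cldn5 and Emcn, taken by gene symbol from the annotation of an Affymetrix mouse array. They are 10 of 12393 genes measured, and 12 of the 22690 probe sets name 1 of them alone. Another 2 probe sets name Ramp2 together with Vps25 and are described apart. The arrays measured RNA of YFP-positive macrophages sorted from mouse mammary glands, with 1 RNA sample and 1 array for each of 4 groups. In the tumor-deficient group the macrophages were from PyMT tumors (a viral oncogene that gives mammary cancer) at an early stage, with both copies of the transcription factor gene Ets2 deleted. The tumor-expressing group came from such tumors with 1 copy of Ets2 per its source label, although its title calls it wild type. The remodeling-deficient group came from remodeling glands of females without tumor, with both Ets2 copies deleted. The remodeling-expressing group came from such glands and is wild type per its labels. All 4 groups share the YFP reporter. The promoter of the reporter, the way Ets2 was deleted, the strain, the ages and the number of animals behind each RNA sample are not given in the sources used here. "Deficient" and "expressing" below are the labels of the arrays.

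Endothelial cells line blood and lymph vessels. Tek (also called Tie2) is the receptor for angiopoietins, and Tie1 is its paralog and partner. Ramp2 carries the receptor Calcrl to the cell surface and makes it a receptor for adrenomedullin. Kdr is the main signalling receptor for VEGF in endothelium, and Eng (endoglin) is a co-receptor for ligands of the TGF-beta family. Pecam1, Cdh5 (VE-cadherin), Esam and Cldn5 hold endothelial cells together, and Emcn (endomucin) coats their surface. Some of these genes are also used by blood cells: Tek marks a subset of perivascular macrophages, Eng is found on some macrophages, and Pecam1 is found on platelets and many leukocytes.

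The arrays differ in the label of an ETS factor, and the ETS family binds sites with a GGAA core, so the promoters of 3 members are shown. They are Tek, the member with the largest difference between arrays, its paralog Tie1, which was dim on every array, and Emcn, which was dim but had the third largest difference with the Ets2 label in remodeling glands. The sequences are RefSeq promoters of build GRCm38.p6, 250 bases before to 50 after the start, 5′ to 3′ on the strand of the gene, and capitals mark GGAA on either strand (TTCC is GGAA on the other strand).
Tek promoter, chr4:94739039-94739338, plus strand: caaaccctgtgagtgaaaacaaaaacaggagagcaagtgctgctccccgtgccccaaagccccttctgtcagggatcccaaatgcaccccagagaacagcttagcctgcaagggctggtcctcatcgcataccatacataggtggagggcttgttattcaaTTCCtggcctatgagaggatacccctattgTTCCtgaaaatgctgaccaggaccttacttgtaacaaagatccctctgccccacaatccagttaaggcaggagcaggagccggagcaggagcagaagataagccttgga
Tie1 promoter, chr4:118489800-118490099, minus strand: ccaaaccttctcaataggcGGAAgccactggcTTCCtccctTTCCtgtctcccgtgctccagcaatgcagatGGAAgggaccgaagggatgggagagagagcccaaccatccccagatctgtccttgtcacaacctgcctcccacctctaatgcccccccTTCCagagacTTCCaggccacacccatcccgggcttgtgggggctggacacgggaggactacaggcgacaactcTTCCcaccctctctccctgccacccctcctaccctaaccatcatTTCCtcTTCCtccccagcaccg
Emcn promoter, chr3:137340828-137341127, plus strand: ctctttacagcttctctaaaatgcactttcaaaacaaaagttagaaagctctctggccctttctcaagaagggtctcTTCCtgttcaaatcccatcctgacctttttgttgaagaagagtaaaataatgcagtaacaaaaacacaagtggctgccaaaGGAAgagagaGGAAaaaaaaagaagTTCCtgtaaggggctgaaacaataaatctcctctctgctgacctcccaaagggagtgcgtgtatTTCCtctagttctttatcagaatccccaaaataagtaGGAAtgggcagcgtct

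Promoters were matched for 6 of the 10 members (Tek, Tie1, Kdr, Eng, Cldn5 and Emcn). The letters GGAA, searched on both strands, occurred 2 times in the Tek window, 9 times in that of Tie1 and 6 times in that of Emcn. Of the other matched windows, that of Kdr held 5 and that of Eng 4, while the Cldn5 window held 0. Over all 32851 promoter windows of the table, 96.0% held GGAA at least once and the median was 3. Both Tek matches lay on the reverse strand, at positions -89 and -59 counted from the start, and both were part of the longer letters CAGGAA. That hexamer, which contains GGAA, was present in 4 of the 6 windows (Tek, Tie1, Eng and Emcn) and in 30.6% of all windows. CCGGAA was in the Kdr window alone among the 6 and in 14.9% of all windows. GATAA, the core of sites for GATA factors, was in those of Tek and Emcn and in 25.4% of all windows. The Tek window thus held fewer GGAA matches than the median window, and those of Tie1 and Emcn more.

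Facts of the whole series bear on the values as follows. The deposited log2 values ran from 2.75 to 14.9, the medians of the 4 arrays over all probe sets from 5.98 to 6.30 and their 25th percentiles from 4.27 to 4.32. A probe set at or above its array's median is called bright here, and one under the 25th percentile is taken as background. A difference was counted where the brighter of both arrays was bright, and called when 2-fold or more (1 on the log2 scale). A single array per group leaves every difference unreplicated and untested, and the number of arrays limits the precision. The only error at hand is how far bright probe sets that name 1 gene disagree, whose pooled standard deviation of the log2 difference was 0.34 in the tumor Ets2 comparison, 0.28 in the remodeling Ets2 comparison, 0.41 for tumor minus remodeling on the expressing arrays and 0.32 on the deficient arrays. Animals, sorting and amplification are outside that error, and words such as higher and lower describe these arrays. The Ets2 probe set was at 12.67 (tumor-deficient), 12.77 (tumor-expressing), 12.97 (remodeling-deficient) and 13.24 (remodeling-expressing), so it did not separate the Ets2 labels. The labels do not give the deleted part, and a probe set outside it checks nothing. All 16 macrophage genes of the list used, from the growth factor receptor Csf1r to the complement gene C1qa, were bright on every array, with a mean of 12.02, 12.06, 12.04 and 12.03 in the same order.

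Most of the endothelial markers gave low signals on these macrophage arrays. Of the 10 members, 7 (Tie1, Pecam1, Cdh5, Kdr, Esam, Cldn5 and Emcn) lay below the array median on all 4 arrays, and 3 (Tek, Ramp2 and Eng) were bright on at least 1. The remodeling-expressing array had all 3 bright members, and each other array had 1: Tek on both tumor arrays and Eng on the remodeling-deficient array. Only Emcn on the remodeling-deficient array and Tie1 on the remodeling-expressing array fell under the 25th percentile. Probe sets differ in how well they bind, so a dim probe set does not give the order of transcripts between genes.

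**Figure D1:**
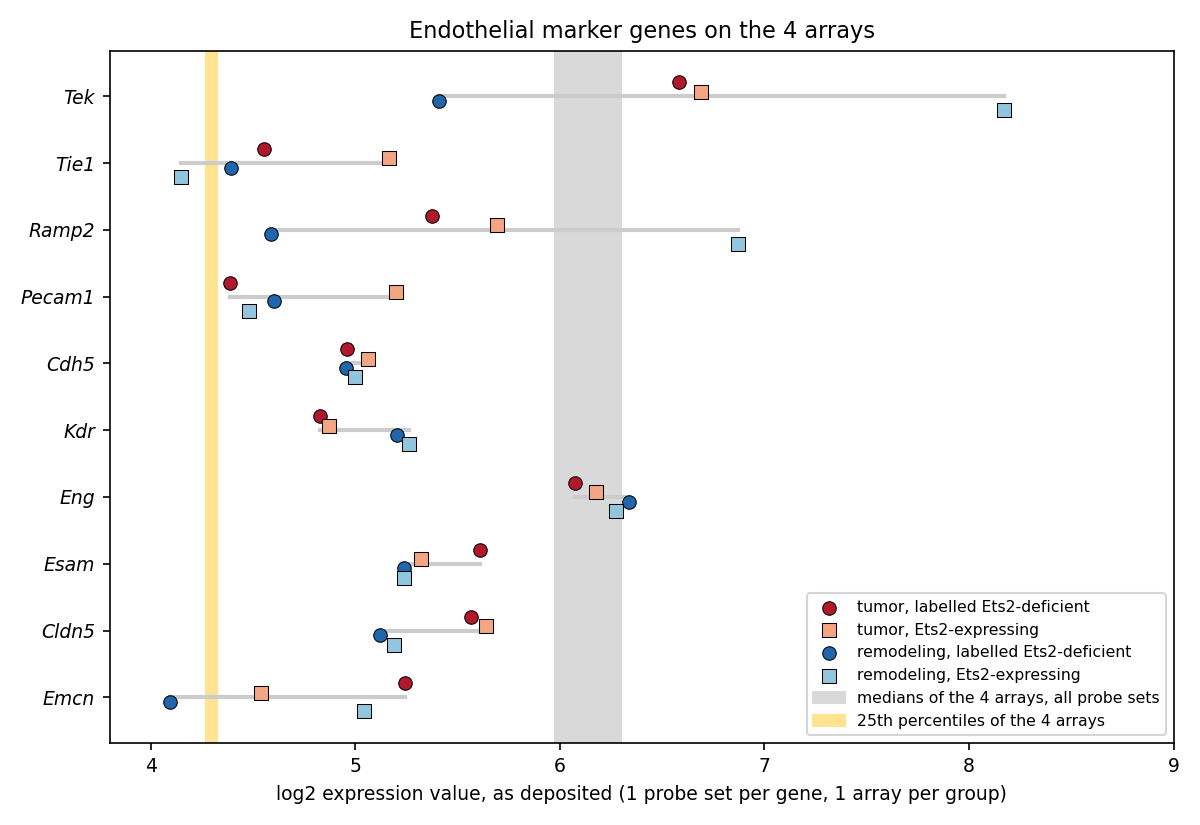
Log2 expression value (x axis) of each of the 10 endothelial marker genes (rows), 1 point per array, with the range of the 4 array medians in grey and of their 25th percentiles in yellow. Tek and Ramp2 spread widely, with the remodeling-expressing array highest and the remodeling-deficient array lowest, while 7 members stay left of the medians on all 4 arrays.

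Tek, the angiopoietin receptor, had the widest span of the 10 members. Its probe set was at 6.58 on the tumor-deficient array, 6.69 on the tumor-expressing array, 5.41 on the remodeling-deficient array and 8.17 on the remodeling-expressing array. The remodeling-expressing array was thus the highest and the remodeling-deficient array the lowest, with both tumor arrays between them. The neighbouring tumor values differed by 0.11 in size, less than the spread between probe sets, whereas each other step in that order exceeded it. On its arrays Tek stood at percentiles 52.7, 54.4, 45.1 and 69.1 in the same order, so that the tumor values were only just bright.

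Ramp2 had the same order of arrays at lower signals. Its own probe set was at 5.38 on the tumor-deficient array, 5.69 on the tumor-expressing array, 4.59 on the remodeling-deficient array and 6.87 on the remodeling-expressing array. It was bright on the remodeling-expressing array alone, and the tumor arrays differed by less than the spread between probe sets. The probe sets shared by Ramp2 and Vps25, a gene of endosomal sorting, were bright everywhere and had another order. The first was at 8.82, 8.77, 9.02 and 8.61 in the same order of arrays, and the second at 8.59, 8.31, 8.98 and 8.51. Both were highest on the remodeling-deficient array, where the Ramp2 probe set was lowest. Which of the genes gave their signal was not tested. The probe set of Vps25 alone was at 6.52, 5.64, 6.10 and 5.89.

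Eng was level across the arrays. Its brighter probe set was at 6.08 on the tumor-deficient array, 6.18 on the tumor-expressing array, 6.34 on the remodeling-deficient array and 6.27 on the remodeling-expressing array. The other was at 5.98, 5.58, 5.61 and 5.76 in that order. All 8 values lay within a narrow range around the medians, and no neighbours in the order of the brighter probe set differed beyond the spread between probe sets.

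The junction genes were dim on all arrays. Cdh5, the adhesion molecule that defines endothelial junctions, was at 4.96, 5.06, 4.96 and 5.00 on the tumor-deficient, tumor-expressing, remodeling-deficient and remodeling-expressing arrays, and its other probe set at 4.82, 4.82, 4.49 and 4.55. Esam was at 5.61, 5.32, 5.24 and 5.24, and the tight junction gene Cldn5 at 5.57, 5.64, 5.12 and 5.19, in the same order. Cldn5 was higher on both tumor arrays than on both remodeling arrays, though dim on all. Pecam1 was at 4.39, 5.20, 4.60 and 4.48, with the tumor-expressing array above the others.

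The receptors Tie1 and Kdr and the sialomucin gene Emcn were dim too. Tie1 was at 4.55 on the tumor-deficient, 5.17 on the tumor-expressing, 4.39 on the remodeling-deficient and 4.15 on the remodeling-expressing array, highest where Pecam1 was highest. Kdr, at 4.83, 4.87, 5.20 and 5.26 in that order, was lower on both tumor arrays than on both remodeling arrays. Emcn was at 5.24, 4.54, 4.09 and 5.04, with its lowest value on the remodeling-deficient array as for Tek and Ramp2, but its highest on the tumor-deficient array.

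In remodeling glands, Tek and Ramp2 were far lower on the deficient than on the expressing array, and the remaining markers were not. Tek differed by -2.76 log2 (6.79-fold lower) and Ramp2 by -2.28 log2 (4.86-fold lower), several times the spread between probe sets of 0.28. Ramp2 lay close to background on the remodeling-deficient array (4.59 against a 25th percentile of 4.29), so the size of its difference is not exact. Eng, the third member bright enough to count, differed by 0.07. Of the 7 dim members, 6 lay between -0.07 and 0.24: Tie1 (0.24), Pecam1 (0.12), Cdh5 (-0.04), Kdr (-0.06), Esam (0.00) and Cldn5 (-0.07). Emcn was at 4.09 on the deficient and 5.04 on the expressing array (-0.95), but the lower value was under the 25th percentile, so the size is not exact.

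Thus 2 of the 3 counted members were lower past 2-fold and 0 higher, where 5.17% of the 7095 genes counted were lower and 1.31% higher. Tek and Ramp2 were counted here only through the expressing array, where they were higher. The members were also chosen with earlier results of these data known, so this count describes the arrays and is no test. The median over the 10 members was -0.05, against 0.04 over all 12393 genes, and 3 of the 10 lay above 0. Among genes too dim to count in this comparison, 3.19% differed by 2-fold or more, which is the scale for the dim members. Whether fewer cells of a type or less RNA per cell lowered a gene cannot be told apart in sorted bulk RNA. The shared probe sets of Ramp2 and Vps25 differed by 0.41 and 0.47 here, in the opposite direction, and the mean of all probe sets naming Ramp2 by -0.47, short of the call.

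**Figure D2:**
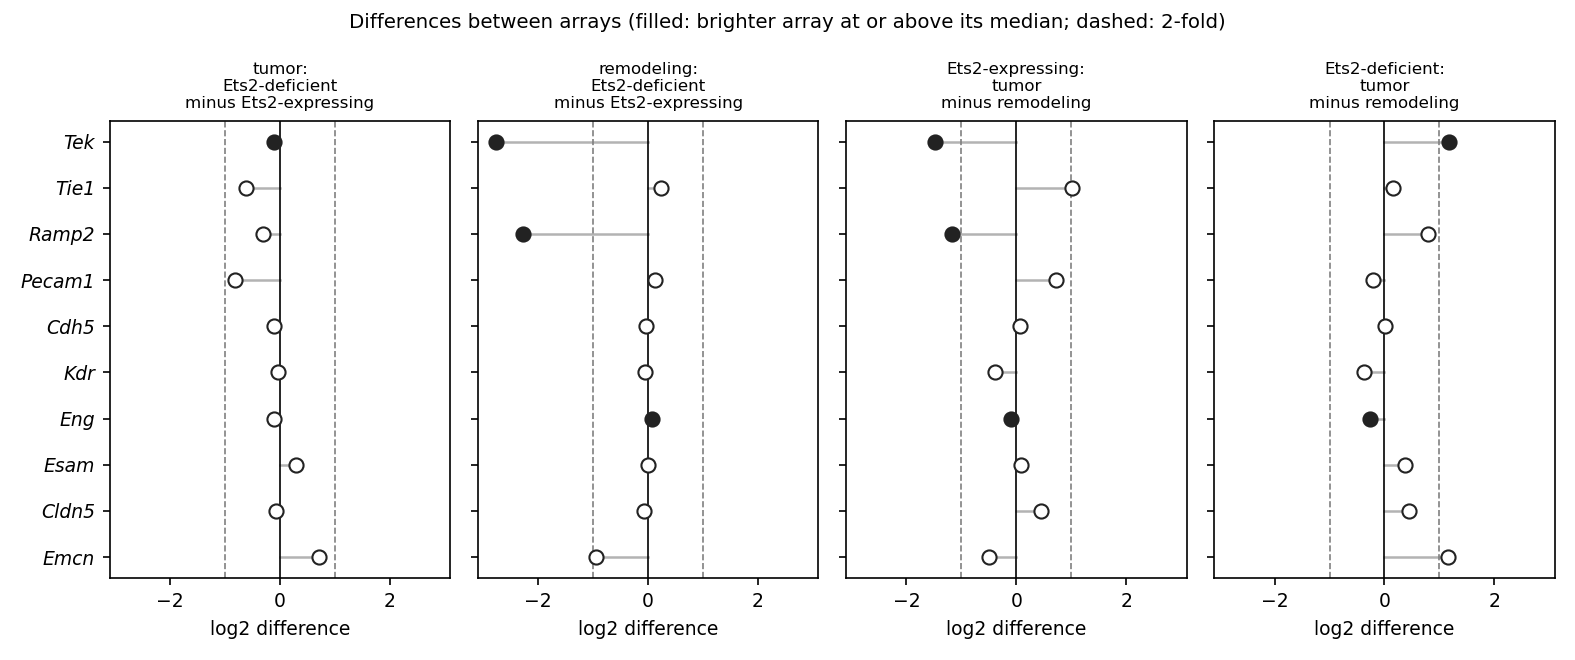
Log2 difference (x axis) of each endothelial marker gene (rows) in 4 comparisons (panels), with filled points where the brighter array was at or above its median and dashed lines at 2-fold. Tek and Ramp2 stand apart in the remodeling Ets2 comparison (-2.76 and -2.28), while in the tumor Ets2 comparison no member reaches 2-fold.

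In tumors, no endothelial marker passed 2-fold with the Ets2 label. Tek, the only member bright enough to count, was at 6.58 on the deficient and 6.69 on the expressing array, a difference of -0.11, less than the spread between probe sets. Counted genes were higher past 2-fold in 2.23% and lower in 0.761% of 7225 cases. The dim members ranged from -0.81 for Pecam1 to 0.71 for Emcn, with Tie1 at -0.62, Ramp2 at -0.32 and Esam at 0.29. The other dim members, Cdh5, Kdr, Eng and Cldn5, lay between -0.10 and -0.04. Past 2-fold were 2.26% of genes too dim to count. The median over the 10 members was -0.10, against 0 over all genes, and 8 of the 10 lay below 0.

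The difference of the Ets2 differences, tumor minus remodeling, was 2.66 log2 for Tek and 1.96 for Ramp2. Per the source labels, the tumor difference is against 1 copy of Ets2 and the remodeling difference against wild type. Setting and Ets2 copies thus cannot be told apart in these values. Tek and Ramp2 both passed 1 log2 upward, as 8.50% of 7473 counted genes did, where 2.94% did so downward. Of the genes too dim to count, 5.91% did either. Ramp2 was counted only through the remodeling-expressing array, where it was highest, so this count is no test. Eng, also counted, had -0.17. Emcn had 1.65 but was dim on all arrays, and the other members lay between -0.94 (Pecam1) and 0.29 (Esam). The pooled standard deviation between bright probe sets of a gene was 0.43 here. For both genes most of the value came from the remodeling arrays, since their tumor differences were -0.11 and -0.32.

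Tumor against remodeling went opposite ways for Tek and Ramp2 on the 2 kinds of arrays. On the expressing arrays Tek differed by -1.48 log2, at 6.69 in tumor against 8.17 in remodeling macrophages, and Ramp2 by -1.18 log2, at 5.69 against 6.87. That made 2 of 3 counted members lower past 2-fold, where 5.20% of 7253 counted genes were lower and 6.18% higher. Ramp2 was counted only through the remodeling array, where it was higher, so this count is no test either. Eng differed by -0.09. Of the dim members, Tie1 was at 5.17 in tumor against 4.15 in remodeling macrophages (1.02), Pecam1 differed by 0.72 and Cldn5 by 0.44, while Emcn differed by -0.50 and Kdr by -0.39. Among genes too dim to count, 4.98% differed by 2-fold or more. These expressing groups differ in their Ets2 copies per the source labels as well as in setting, and both cannot be told apart.

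On the deficient arrays Tek was higher in tumor than in remodeling macrophages by 1.17 log2, at 6.58 against 5.41. It was the 1 of 2 counted members past 2-fold, where 7.61% of 7203 counted genes were higher and 1.61% lower, and it was counted only through the tumor array. That call was lost under each of the 3 other scalings of the arrays, with 0.85 after centring each array on its median. Eng differed by -0.26. Ramp2 was too dim to count and differed by 0.79, and Emcn, also dim, by 1.15, at 5.24 in tumor against 4.09 in remodeling macrophages. Of genes too dim to count, 4.26% differed by 2-fold or more. The median over the 10 members was 0.27 here, against 0.01 over all genes, whereas on the expressing arrays it was -0.02 against 0.08. Both comparisons share no array with each other, but each shares 1 with either Ets2 comparison, so their values are not separate support. RNA quality ran with the setting: the excess of the 3′ over the 5′ control signal of Actb, which grows as transcripts get shorter, was 3.54 (tumor-deficient), 3.30 (tumor-expressing), 2.96 (remodeling-deficient) and 2.72 (remodeling-expressing). Markers of other cells differed between the settings as well. Fibroblast genes were lower past 2-fold in 7 and higher in 0 of 16 counted on the expressing arrays (median -0.78), and lower in 0 and higher in 8 of 16 on the deficient arrays (median 0.71), the same opposite signs as Tek. Mammary epithelial genes were higher past 2-fold in 12 of 13 on the expressing arrays (median 2.89) and in 13 of 13 on the deficient arrays (median 4.57). The part of RNA quality and of these cells in the Tek and Ramp2 differences was not tested.

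The genes with profiles most like those of Tek and Ramp2 included 1 of the fibroblast list (Pdgfra), 1 of the further endothelial list (Cd34) and 1 partner gene (Adm). Likeness was measured as the Euclidean distance between log2 profiles centred on their own mean, over 4 arrays and among 7472 other genes bright on at least 1 array. Nearest to Tek were Fap (distance 0.15), the fibroblast activation protein, the secreted protease gene Htra1 (0.16), Adm (0.17), which encodes adrenomedullin, the complement inhibitor gene Serping1 (0.17) and the follistatin-like secreted protein gene Fstl1 (0.25). Fap was at 6.43, 6.68, 5.38 and 7.99 on the tumor-deficient, tumor-expressing, remodeling-deficient and remodeling-expressing arrays, the same order of arrays as for Tek.

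Nearest to Ramp2 were Cd34 (distance 0.05), a sialomucin of endothelium, blood progenitors and some fibroblasts, the PDGF receptor gene Pdgfra (0.17), a marker of fibroblasts, Htra1 (0.25), Fap (0.25) and Itm2a (0.25). Cd34 was at 9.33 on the tumor-deficient, 9.64 on the tumor-expressing, 8.54 on the remodeling-deficient and 10.88 on the remodeling-expressing array, and so ran parallel to Ramp2 from array to array. Tek and Ramp2 lay 0.37 apart, and Ramp2 ranked 14th among genes nearest to Tek. No other member was near: the closest, Emcn, lay 1.49 from Tek and 1.30 from Ramp2, and Tie1 lay 2.28 from Tek.

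**Figure D3:**
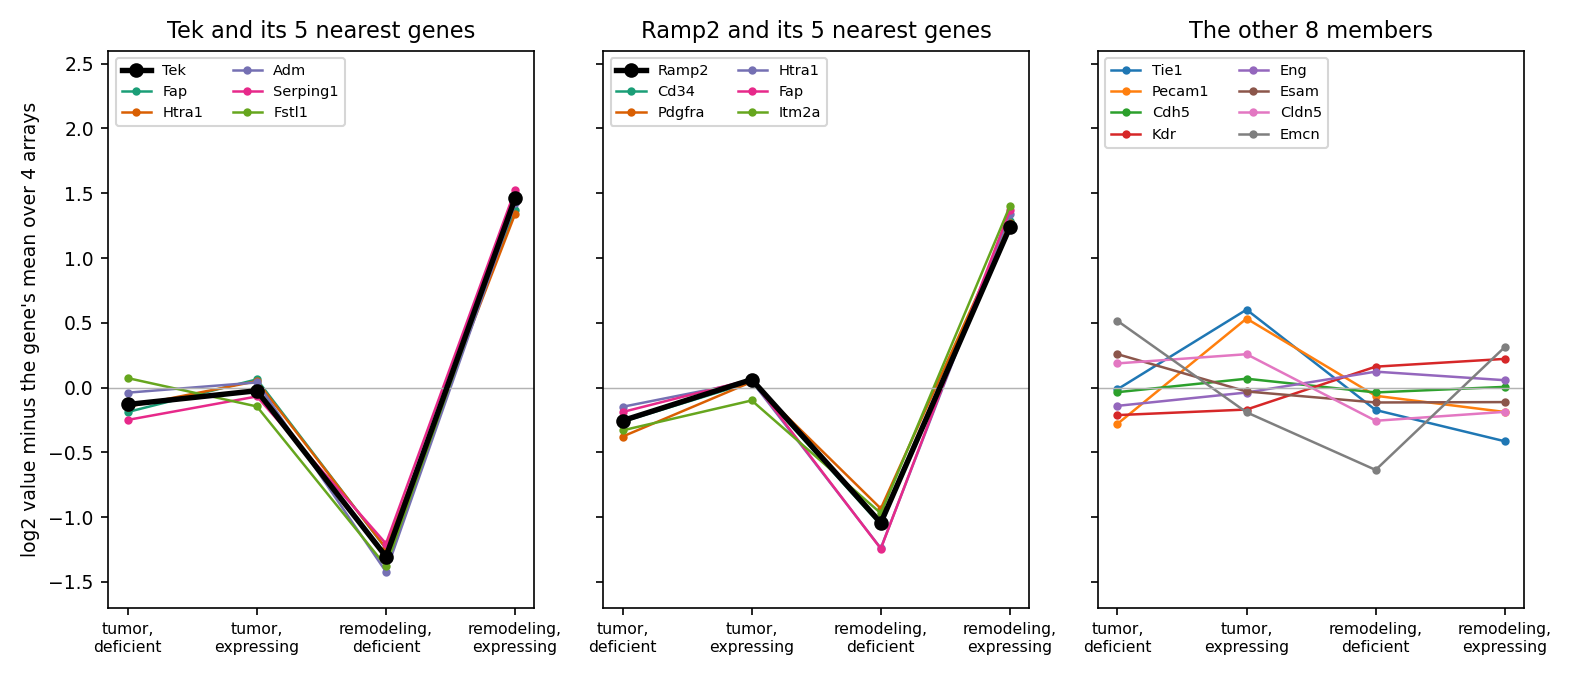
Log2 values after subtracting each gene's own average (y axis) by array (x axis), for Tek and its 5 nearest genes, Ramp2 and its 5 nearest genes, and the other 8 members. Tek and Ramp2 run beside genes such as Fap and Cd34, lowest on the remodeling-deficient and highest on the remodeling-expressing array, and the other members do not.

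The ligands and co-receptors of the members differed unevenly between the arrays. In the Tek system, the angiopoietin genes were at or near background on all arrays, Angpt1 between 3.83 and 4.04 and Angpt2 between 4.20 and 4.78. The adaptor gene Dok2, which docks on Tek, was bright and level (9.20, 9.11, 9.02 and 8.85 in the order used above), and so was the phosphatase gene Ptpn11 (10.31, 10.19, 10.56 and 10.54). The adaptor gene Shc1 was at 7.54, 6.71, 7.65 and 7.74, lowest on the tumor-expressing array and past 2-fold there against remodeling (-1.03), although a second, dim probe set was equal on those arrays.

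In the Ramp2 system, the ligand gene Adm was lower together with Ramp2 on the remodeling-deficient array, whereas the receptor gene Calcrl was not. Adm was at 3.78 on the remodeling-deficient and 6.63 on the remodeling-expressing array (-2.84 log2, with the deficient array at background), with 5.17 and 5.24 on the tumor-deficient and tumor-expressing arrays. Calcrl was bright at 9.78, 10.04, 10.59 and 10.32, a remodeling Ets2 difference of 0.26. Of the alternative partners of Calcrl, Ramp1 was at 7.22, 6.71, 5.51 and 5.75, higher in tumor than in remodeling macrophages by 1.71 log2 on the deficient arrays. Ramp1 differed by -0.23 in the remodeling Ets2 comparison, too dim to count there. Ramp3 was at 5.93, 5.63, 4.64 and 5.74, dim everywhere, with -1.10 in that comparison, the direction of Ramp2.

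In the VEGF system, Kdr was dim while its co-receptor genes were bright. Nrp1 was at 12.43, 12.49, 12.66 and 12.54 and Nrp2 at 9.80, 10.09, 10.42 and 10.73, and neither passed 2-fold in any comparison. The ligand gene Vegfa was at 7.49, 7.24 and 8.37 on the tumor-deficient, tumor-expressing and remodeling-deficient arrays and highest on the remodeling-expressing array, with a tumor minus remodeling difference of -1.75 log2 on the expressing arrays, and Vegfc was dim (4.57 to 4.79). For Eng, the receptor genes Tgfbr2 (11.45 to 11.62) and Acvrl1 (7.73, 7.51, 6.99 and 7.61) did not pass 2-fold. Tgfbr1 (11.48, 11.81, 10.84 and 10.25) was higher in tumor than in remodeling macrophages by 1.56 log2 on the expressing arrays, although its other probe sets, both dim there, gave 0.03 and 0.80. Bmpr2 (5.34 to 5.97) and the ligand gene Gdf2 (3.87 to 4.16) were dim. Of the catenin genes whose products bind Cdh5, the brightest probe sets stayed within 2-fold in the 4 comparisons, Ctnnb1 at 11.96 to 12.22, Jup at 10.77 to 11.18 and Ctnnd1 at 8.91 to 9.60. A less bright probe set of Ctnnb1 gave -1.007 for tumor minus remodeling on the expressing arrays (7.12 against 8.12). Of the 21 measured partners, 14 were counted in the remodeling Ets2 comparison, with 1 lower (Adm) and 0 higher past 2-fold. Over all counted genes, 5.17% were lower and 1.31% higher, so a count of 1 in 14 is near that share.

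Further endothelial genes differed unevenly too. Over all counted genes, 5.17% were lower past 2-fold in the remodeling Ets2 comparison and 1.31% higher. Of 35 measured genes of this list, 17 were counted there, 7 lower and 0 higher past 2-fold, with a median of -0.17 over the 35 against 0.04 over all genes. Cd34 (-2.35), the thrombomodulin gene Thbd (-1.51), which is also used by monocytes, and the hematopoietic and endothelial transcription factor gene Tal1 (-1.39) led them. The other 4, named after their values were seen, were Ackr1 (-1.23), Procr (-1.22), Sox7 (-1.20) and Adgrl4 (-1.003). Tal1, Ackr1 and Sox7 were counted only through the expressing array, where they were higher. The list was also chosen with earlier results of these data known, so this count is no test. The other probe set of Adgrl4, dim on all arrays, gave 0.49. Erg, Sox18, Ephb4, Dll4, Sele, Nos3 and Gja4, endothelial genes also named after their values were seen, were dim, between 3.93 and 4.52 on all arrays. Others of the list were bright and above 0 in that comparison without reaching 2-fold, namely Vwf (0.96), Aplnr (0.75), Icam2 (0.37) and Cd93 (0.25), the last at 11.93 on the remodeling-deficient and 11.68 on the remodeling-expressing array. The VEGF receptor gene Flt1, at 7.60, 7.27, 7.75 and 8.54 in the order used above, differed by -0.80 in that comparison, and its other probe sets were dim.

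In the tumor Ets2 comparison, the same list had 2 genes higher and 1 lower past 2-fold among 17 counted. Over all counted genes, 2.23% were higher and 0.761% lower. Selp, the adhesion molecule P-selectin, was at 7.83 on the deficient and 6.53 on the expressing array (1.30), but a second probe set, which was dim, gave -0.24. Plvap, a protein of endothelial fenestrae named after its value was seen, was at 6.95 and 5.71 (1.25). Tal1 was the lower gene (-1.03). Plvap and Tal1 were each counted only through the array where they were higher, so this count is no test either. Between the settings, 5 of 17 counted genes were lower and 1 higher in tumor than in remodeling macrophages on the expressing arrays, Thbd (-1.79) being one of the lower genes. The higher gene was the apelin receptor gene Aplnr (1.41), whose other probe set, bright on both arrays, gave -0.32. On the deficient arrays 0 of 15 were lower and 2 higher, 1 of them Notch4 (1.32). Over all counted genes, 5.20% were lower and 6.18% higher on the expressing arrays, and 1.61% and 7.61% on the deficient arrays.

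Markers of some other cell types were lower beside Tek and Ramp2 on the remodeling-deficient array. The lists were chosen with earlier results of these data known, so their counts are no test. Over all counted genes, 5.17% were lower past 2-fold and 1.31% higher. Of 18 measured fibroblast and matrix genes, 16 were counted and all 16 were lower past 2-fold on the deficient array, with a mean level of 7.82 on the remodeling-deficient against 9.71 on the remodeling-expressing array, and 8.83 and 8.77 on the tumor-deficient and tumor-expressing arrays. Of 9 mast cell genes, 5 were counted and all 5 were lower past 2-fold, among them the protease genes Mcpt4 (-3.20) and Cma1 (-2.84), with a mean level of 5.30 on the deficient against 6.79 on the expressing array. Of 12 genes of pericytes and smooth muscle, 5 were counted and 3 were lower past 2-fold: Abcc9 (-2.59), Pdgfrb (-2.29) and Acta2 (-1.05), while the pericyte gene Rgs5 differed by 0.21, and by -0.36 in its other bright probe set. The other probe set of Pdgfrb, dim on both arrays, gave -0.39. The summed signal on the linear scale was 10052 on the remodeling-deficient and 31772 on the remodeling-expressing array for fibroblast genes, 544 and 2043 for mast cell genes, 826 and 1085 for mural genes, and 350 and 700 for the 10 endothelial markers. Nearly all of the endothelial difference came from Tek and Ramp2, while Eng differed by 0.07 log2 and the other members were dim. The part of the other cell types in the Tek and Ramp2 differences was not tested. The mast cell genes Ms4a2 (-0.40), Fcer1a (-0.245), Kit (-0.05) and Tpsab1 (-0.60) were dim on every array. The other probe sets of Tpsb2 and Kit, dim too, gave -0.30 and 0.03.

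In the same comparison, none of the 16 macrophage genes passed 2-fold (median -0.02). The shares over all counted genes were 5.17% lower and 1.31% higher. Of 7 genes of Tie2-expressing macrophages, all counted, Tek was the 1 lower past 2-fold, and Mrc1 (0.08), Cd163 (0.11), Nrp1 (0.11), Folr2 (-0.04) and Stab1 (0.64) did not follow it. Lyve1, also used by lymphatic endothelium, differed by -0.87, short of 2-fold, and by -1.16 in its other probe set. Platelet genes held 2 counted members and none past 2-fold, with Itga2b, Gp9, Gp1bb and Itgb3 dim on all arrays. Of lymphatic genes, Prox1, Flt4 and Reln were dim, and Pdpn, which fibroblasts and macrophages also use, differed by -2.08. Adipocyte genes held 2 counted members and none past 2-fold. Of the 13 mammary epithelial genes, 10 were too dim to count in remodeling glands. The other 3 (Krt18, Krt19 and Csn3) were lower past 2-fold on the deficient array. Krt19 was counted only through the expressing array, where it was higher, so this count is no test. All 13 epithelial genes were bright in tumors and counted in the tumor Ets2 comparison (median 0.81). There 3 were higher past 2-fold, Csn2 (3.70), Wap (2.27) and Elf5 (1.22, with -0.28 in its other, dim probe set). Over all counted genes, 2.23% were higher there.

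**Figure D4:**
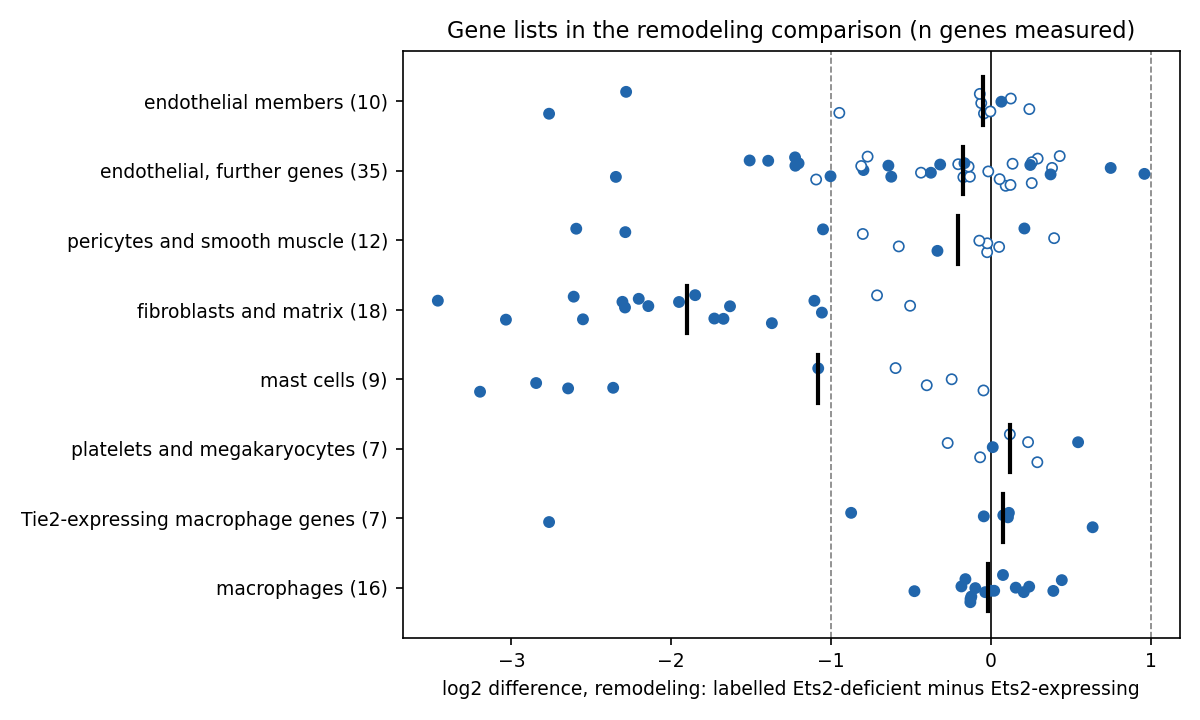
Log2 difference between the deficient and expressing remodeling arrays (x axis) for the genes of 8 lists (rows), 1 point per gene, filled where the brighter array was at or above its median, with black bars at the list medians and dashed lines at 2-fold. The fibroblast list lies wholly below 0 (median -1.90) and the macrophage list around it (median -0.02), while of the 10 endothelial markers Tek and Ramp2 alone lie beyond -1.

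The order of arrays shared by Tek and Ramp2, highest on the remodeling-expressing and lowest on the remodeling-deficient array, was then counted, a choice made after their values were seen. It held for 5.74% of the 7473 genes bright on at least 1 array. Since Tek and Ramp2 defined it, it says nothing of the endothelial markers themselves. It held for 6 of 19 bright further endothelial genes, 14 of 16 bright fibroblast genes, 4 of 5 bright mast cell genes, 2 of 5 bright genes of pericytes and smooth muscle and 1 of 16 macrophage genes. Among those with this order, Ackr1, Sox7, Tpsb2 and Pdgfrb were bright on the remodeling-expressing array alone. The lists were also chosen with earlier results of these data known, so these counts are no test.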

How the data were processed

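The members and gene lists were chosen with earlier results of these data known. The deposited values are log2 expression values of 4 Affymetrix arrays, per the labels of YFP-positive sorted macrophages, with about 10 ng RNA amplified as cDNA and biotin-labelled. GCOS and RMA are named, without versions or roles, per the submitters' processing notes. Whether the 4 arrays were normalized together is not given in the sources used here. The log base was read from the range of the authors' values, which are not centred. Array medians were 6.30 (tumor-deficient), 6.22 (tumor-expressing), 5.98 (remodeling-deficient) and 6.17 (remodeling-expressing). All 4 columns were used as deposited, without rescaling.

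The platform annotation named 1 gene for 20380 probe sets, several for 691 and none for 1555, besides 64 controls. Entrez identifiers matched 20351 of the first to RefSeq (GRCm38.p6), and 0 symbols changed. Each gene took its probe set with the highest mean. The members are always named, as are the partners, up to 6 called genes of each list, and the 5 genes nearest to Tek and Ramp2, the members bright on an array and spanning at least 1 log2. Some genes sit in several lists. No gene positions are given, as no build is named for the array. The calling code was run on simulated arrays, with differences set only in genes whose means lay well above the array medians. Signals near or below the medians, as those of the members, were not covered. Python 3.11.15, numpy 2.4.6 and pandas 2.3.3 were used. Alternatives covered scaling, probe set choice, dim filter and fold.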

Additional observations from a re-analysis of the deposited data

Results flagged for a closer look

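Tek was lower in tumor than in remodeling macrophages on the Ets2-expressing arrays (-1.48 log2) and higher on the arrays labelled Ets2-deficient (1.17 log2). Ramp2 had the same opposite directions (-1.18 and 0.79), the second value being of a probe set below the median of both arrays. Emcn, dim on all arrays, had opposite directions both for tumor minus remodeling (-0.50 and 1.15) and with the Ets2 label, at 0.71 in tumor and -0.95 in remodeling macrophages. They are listed because the directions oppose each other and each size exceeds the pooled spread between probe sets of a gene. With 1 array per group, none of these differences was tested. The expressing groups also differ in their Ets2 copies per the source labels.

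The probe sets shared by Ramp2 and Vps25 lie outside the gene-level comparisons and were bright on all 4 arrays. Their remodeling Ets2 differences were 0.47 and 0.41, against -2.28 for the probe set of Ramp2 alone.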

How the results depend on the processing

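No paired analysis was possible because each group holds 1 array, and leaving out an array leaves no comparison. Under 8 other settings and 1 chosen after seeing the data (all probe sets naming Ramp2), 355 of 365 recomputed member values moved by less than the pooled spread between probe sets, 10 moved by more and 0 called values changed sign. The 75th percentile, the missing filter and the 1.5-fold call change calls but no value. The mean over probe sets naming 1 gene changes, of the members, Cdh5 and Eng alone. Many of the 355 were thus unchanged by construction. Where Tek and Ramp2 could be computed, their remodeling Ets2 differences ran from -2.76 to -2.56 and from -2.28 to -2.08. The mean of all Ramp2 probe sets gave -0.47 there, -0.40 for tumor minus remodeling on the expressing arrays, 0.06 on the deficient arrays and 0.47 for the difference of differences. Tumor minus remodeling on the deficient arrays had 1 member called, but 0 after median centring, quantile normalization or centring on 18 hybridization controls, where Tek ran from 0.85 to 0.95, and 2 (Tek and Emcn) without a filter on dim genes. The second brightest probe set exists for Cdh5 and Eng alone among the members, and the 75th percentile removes Tek and Ramp2, so 0 members were called in any comparison under these by construction. Over all genes, the called counts in the tumor Ets2, remodeling Ets2, expressing setting, deficient setting and difference comparisons were 216, 460, 825, 664 and 855. They were 84, 155, 283, 164 and 303 with second probe sets, 62, 151, 279, 210 and 281 at the 75th percentile, and 1103, 1153, 2165, 1704 and 2098 at 1.5-fold, with 333 in the tumor Ets2 comparison without the filter. Median centring moved the median of all genes from 0.04 to 0.23 in the remodeling Ets2 comparison and from 0.01 to -0.31 for tumor minus remodeling on the deficient arrays, where the share of higher genes among those called was 50.8% against 82.5%. In the remodeling and tumor Ets2 comparisons those shares were 39.5% against 20.2% and 58.1% against 74.5%. For the difference of differences the majority turned, with 43.5% higher against 74.3%, while Tek and Ramp2 stayed above 1 log2.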
